A study of Mus musculus with 2 samples.

Results

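Extracellular purines are read by surface receptors and broken down by surface enzymes, and 10 such genes were followed here among the 32285 genes of the count tables. They are the ATP, ADP and UDP receptors P2ry12, P2ry13, P2ry6, P2rx7 and P2rx4, the ectoenzymes Entpd1 (CD39) and Nt5e (CD73), and the adenosine receptors Adora3, Adora2a and Adora2b, chosen by symbol. Their UMIs (unique molecular identifiers, the counted transcript tags) were summed per cell class and library over barcodes with at least 300 genes and under 10% mitochondrial UMIs. The cells came from CT-2A tumours, a mouse glioma line implanted in the brain and removed after 14 days, and were enriched with beads against CD45 before droplet 5′ single-cell RNA sequencing. The wildtype group was 1 library from wildtype hosts, and the Glut5 KO group was 1 library from Glut5 KO hosts; Slc2a5 encodes Glut5, which carries fructose into cells. Tumour line, site and harvest time were shared by both groups, and the labels give the genotype for the mouse, not for the implanted line. The series' design text speaks of a knockdown where the sample labels say KO.

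Damaged and dying cells release ATP and ADP, and UDP as well. P2Y receptors couple these nucleotides to G proteins, whereas P2X receptors are ATP-gated cation channels. CD39 strips ATP and ADP to AMP, CD73 turns AMP into adenosine, and adenosine acts on its own receptors, which raise or lower cyclic AMP and restrain many immune cells. In the brain, P2RY12 is the ADP receptor that steers microglial processes towards injury and a standard marker of resident microglia.

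Slc2a5 gave 384 UMIs in the wildtype library and 1 in the Glut5 KO library before any filter, so the target gene followed the labels. After filtering, 11473 wildtype and 12112 Glut5 KO barcodes remained, with medians of 8682 and 6523.5 UMIs. The sample titles speak of 1 mouse, yet each library mixed cells that had Y-linked UMIs but no Xist (3620 and 2646) with cells that had Xist but nothing Y-linked (2891 and 3473). How many animals were pooled is not given in the sources used here. Between them the libraries shared 188 barcode sequences. With 1 library per genotype no test across samples was possible. Genotype and library cannot be told apart, and every interval below covers counting error only.

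Cells were assigned to classes by marker transcripts, none of them a purine gene, and the class names rest on transcripts alone. The wildtype and Glut5 KO libraries gave 1108 and 1065 microglia-like cells, 6496 and 5990 monocyte/macrophage-like cells, 263 and 521 T cell-like and 259 and 299 NK cell-like cells, plus smaller dendritic, B, plasma, neutrophil, mast cell and stromal classes. The stromal class held almost no Ptprc, the gene of CD45 (8.45 and 10.2 UMIs per 1000000 UMIs, written CPM), so cells without CD45 transcripts remained after the bead selection. Its gate took markers of stroma, vessel and tumour cells together, so this class may hold cells of the implanted line. Monocyte/macrophage-like cells were divided into a monocyte range and a macrophage range by which marker set had more UMIs. Barcodes with markers of more than 1 class were left out, and no doublet caller was run. This is a cut through a continuum, and 682 wildtype and 762 Glut5 KO cells lay within 1.5-fold of it. Levels below are UMIs of a gene in CPM of its class and library, and they are compared within a gene and not between genes.

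Among classes of at least 50 cells in both libraries, each member had the same leading class in both. P2ry12, P2ry13 and Adora3 were highest in microglia. P2ry6 and Entpd1 were also highest in microglia, with the macrophage range next, and P2rx4 and P2rx7 were highest in the macrophage range. Nt5e led in T cells, Adora2a in migratory dendritic cells and Adora2b in cDC2, with the monocyte range next.

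**Figure D1:**
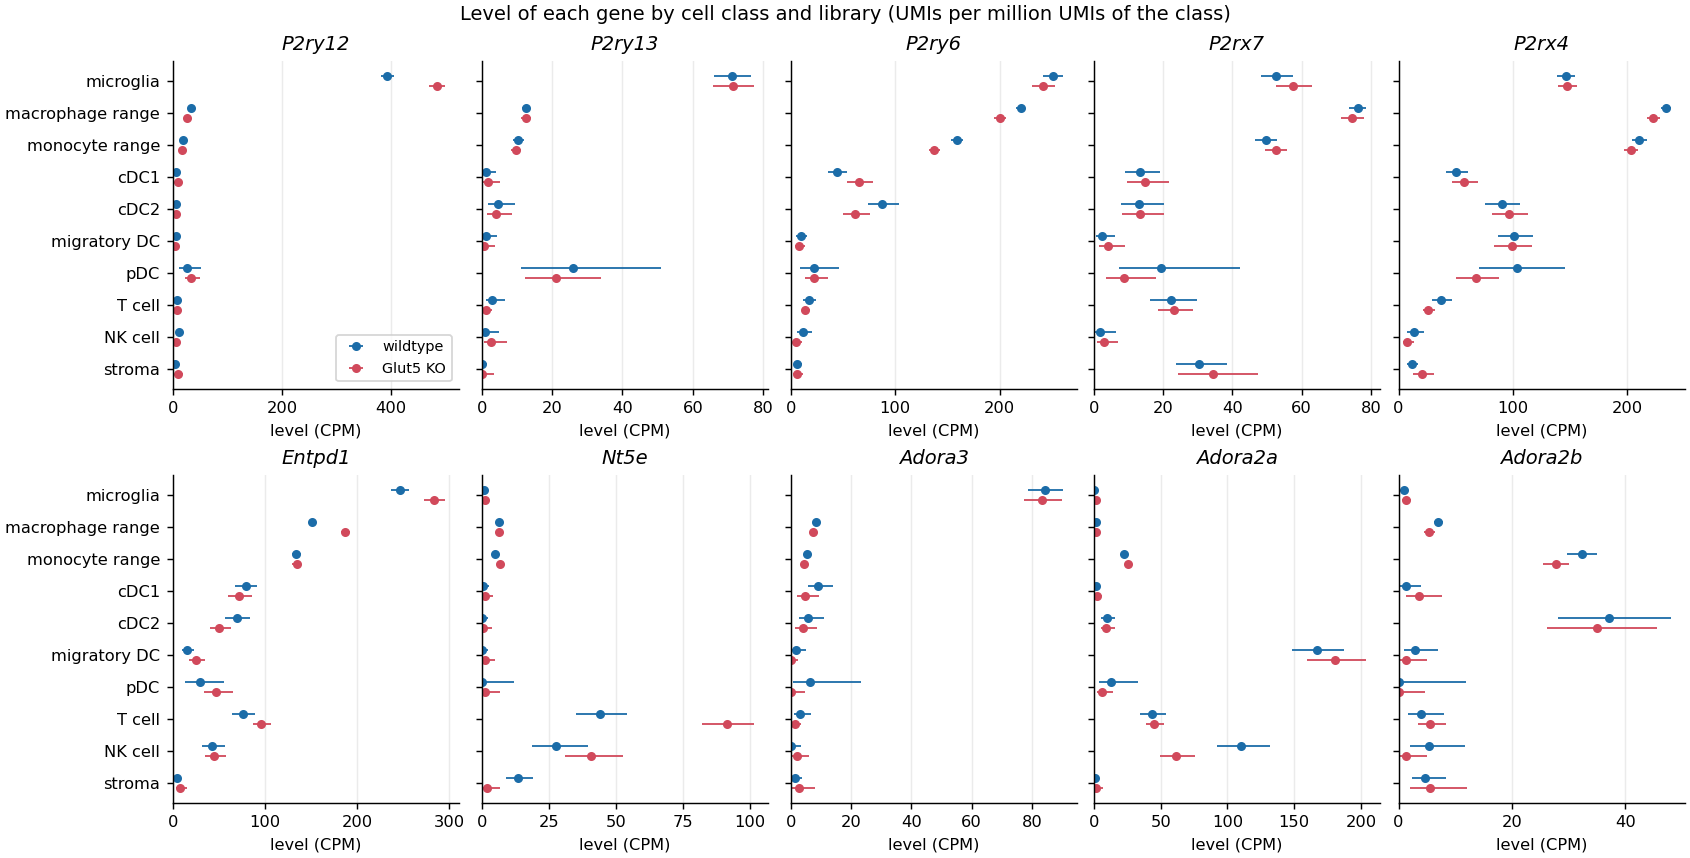
Level of each of the 10 genes in CPM (x axis, a linear scale of its own for each gene) in 10 cell classes (y axis) of the wildtype and Glut5 KO libraries, with points for the 2 libraries and bars for the exact 95% Poisson interval. P2ry12 stands at 393 and 484 CPM in microglia and at no more than 33.7 CPM in any other class drawn, while Adora2a peaks in migratory dendritic cells and Nt5e in T cells.

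P2ry12, the microglial ADP receptor (ENSMUSG00000036353, chr3:59216272-59262871, minus strand, GRCm38), reached 393 CPM in the wildtype library (95% interval 381 to 405, 3927 UMIs) and 484 CPM in the Glut5 KO library (469 to 499, 3919 UMIs). These intervals did not overlap. UMIs summed over a class cannot tell fewer positive cells from less RNA per cell. The Glut5 KO to wildtype ratio, given on the log2 scale and taken with 0.5 added to each count, was 0.30 (95% interval 0.24 to 0.37), a 1.23-fold difference. In the macrophage range the level was 33.5 and 26.9 CPM, and the direction was the opposite one, with a log2 ratio of -0.32 (95% interval -0.45 to -0.19). Microglia thus exceeded the macrophage range 11.7 (11 to 12.4)-fold in the wildtype and 18.0 (16.6 to 19.5)-fold in the Glut5 KO library. The monocyte range had 18.1 and 17.5 CPM, and T cells 8.08 and 7.56 CPM.

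With every cell thinned to 1000 UMIs, P2ry12 was seen in 320 of 1071 wildtype and 347 of 970 Glut5 KO microglia (29.9% and 35.8%). In T cells, which should lack it, it was seen in 0 of 262 cells, which allows a share of up to 1.15%, and in 3 of 504. Unthinned, the shares were 79.3% and 73.8% of microglia and 5.32% and 4.61% of T cells, at median depths of 7776.5 and 6162 UMIs in microglia and 4951 and 5241 in T cells. Thinning left out 37 and 95 shallower microglia. The ratio of P2ry12 to Tmem119 and to Sparc differed between the classes, but the gate used both of these transcripts. Sparc was in the marker sum that had to be high in microglia and low in monocyte/macrophages. Tmem119 was among the markers counted for microglia. The ratios to Sparc are thus set in part by the gate, and the source of the P2ry12 RNA was not tested. In the macrophage range P2ry12 had 0.157 and 0.153 UMIs per UMI of Tmem119 and 2.90 and 2.32 per UMI of Sparc. In microglia the same ratios were 0.588 and 0.679 for Tmem119 and 0.249 and 0.289 for Sparc.

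The P2ry12 difference in microglia was uneven across sex-marker strata. Microglia with Y-linked UMIs alone had 285 and 439.9 CPM (895 and 1083 UMIs) in the wildtype and Glut5 KO libraries, a log2 ratio of 0.63 (95% interval 0.50 to 0.76). Microglia with Xist alone had 491 and 495 CPM (2005 and 1764 UMIs), a log2 ratio of 0.01 (95% interval -0.08 to 0.11). The low value was therefore the wildtype Y-linked stratum. The difference between strata was not tested, since each library holds an unknown number of animals. Dividing cells, meaning those with over 1 UMI of a set of cell division genes, were 22.3% of the microglia in the wildtype library and 10.2% in the Glut5 KO library, and their P2ry12 level was 0.609 times (0.563 to 0.658) and 0.648 times (0.577 to 0.723) that of non-dividing ones. Within non-dividing microglia the log2 ratio was 0.19 (95% interval 0.12 to 0.26).

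P2ry13, a second ADP receptor whose gene lies 5390 bases from P2ry12 on the same strand (ENSMUSG00000036362, chr3:59207892-59210882, minus strand), had 71.1 and 71.4 CPM in microglia, with overlapping intervals and a log2 ratio of 0.01 (95% interval -0.16 to 0.17). Its next level was in plasmacytoid dendritic cells, with 25.8 and 21.2 CPM from only 8 and 17 UMIs, and P2ry12 had 25.8 and 33.7 CPM there. Med12l, which overlaps both genes on the opposite strand, was at 93.6 and 72.4 CPM in plasmacytoid cells and at 12.6 and 14.7 CPM in microglia, and without stated strand use in the counting the reads cannot be told apart. The macrophage range had 12.5 and 12.5 CPM of P2ry13. Of microglia with a P2ry12 UMI at 2000 UMIs per cell, 21.1% and 19.4% also had one of P2ry13, against 10.9% and 9.84% of those without.

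P2ry12, P2ry13 and the adenosine receptor Adora3 followed each other across classes. Over 25 points, each a class of at least 50 cells in 1 library, log2(CPM + 10) of P2ry12 correlated with P2ry13 at a Pearson r of 0.94 and with Adora3 at 0.92. The points share libraries and depth, so these are descriptions. Between libraries in microglia they did not, with log2 ratios of 0.30, 0.01 and -0.02. Because of the likeness across classes, the 250 bases before the RefSeq start are shown in GRCm38.p6, each 5′ to 3′ on the gene's strand. They are P2ry12 (chr3:59262986-59263235, minus strand), P2ry13 (chr3:59210883-59211132, minus strand) and Adora3 (chr3:105904171-105904420, plus strand). Capitals mark GAGGAA, the purine-rich core bound by the myeloid factor PU.1, and ACGTG, the core shared by E-box and hypoxia elements, on either strand.
P2ry12: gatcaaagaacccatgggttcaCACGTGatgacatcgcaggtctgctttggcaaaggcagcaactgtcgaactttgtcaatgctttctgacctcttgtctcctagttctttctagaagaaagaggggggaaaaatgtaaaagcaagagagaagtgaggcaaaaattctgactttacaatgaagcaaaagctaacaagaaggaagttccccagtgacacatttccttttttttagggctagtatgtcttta
P2ry13: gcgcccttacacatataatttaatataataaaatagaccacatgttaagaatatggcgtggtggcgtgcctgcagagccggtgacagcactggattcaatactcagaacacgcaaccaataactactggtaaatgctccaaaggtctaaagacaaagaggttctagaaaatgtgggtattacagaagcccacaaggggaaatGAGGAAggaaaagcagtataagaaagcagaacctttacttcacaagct
Adora3: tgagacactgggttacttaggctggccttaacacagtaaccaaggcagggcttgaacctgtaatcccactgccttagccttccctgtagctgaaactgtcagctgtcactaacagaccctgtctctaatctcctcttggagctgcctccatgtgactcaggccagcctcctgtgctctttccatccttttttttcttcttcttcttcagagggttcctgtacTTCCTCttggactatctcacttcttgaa
The P2ry12 window held no GAGGAA and held ACGTG on both strands of 1 overlapping run. P2ry13 and Adora3 each held 1 GAGGAA, starting 48 and 28 bases before the start site, and Adora3 also held TGACTCA, the AP-1 element, which is left in lower case. Of all 32851 RefSeq promoter windows of this length, 23.3% held GAGGAA, 16.6% ACGTG and 4.46% TGACTCA, counting both strands. A match is a description and marks no bound site. RefSeq windows were matched for 8 of the 10 members by symbol.

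P2ry6, the UDP receptor tied to microglial phagocytosis (ENSMUSG00000048779, chr7:100937630-100974649, minus strand), was spread across the whole phagocyte compartment. Microglia had 251 and 242 CPM, the macrophage range 220.1 and 200.3 CPM and the monocyte range 159 and 137 CPM, so these 3 stood in that order in both libraries with intervals apart. The Glut5 KO library was lower in the macrophage range, with a log2 ratio of -0.14 (95% interval -0.18 to -0.09), and in the monocyte range, with -0.21 (95% interval -0.28 to -0.14), and both stayed under 1.5-fold. In microglia the log2 ratio was -0.05 (95% interval -0.14 to 0.03). Dendritic cells had less, with 87.8 and 61.9 CPM in cDC2 and 44.3 and 65.0 CPM in cDC1, and NK cells had 11.7 and 5.54 CPM.

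P2rx7, the ATP-gated channel that triggers the NLRP3 inflammasome (ENSMUSG00000029468, chr5:122643911-122691432, plus strand), was highest in the macrophage range at 76.1 CPM in the wildtype library (95% interval 73.7 to 78.7, 3591 UMIs) and 74.6 CPM in the Glut5 KO library (71.4 to 78.0, 1991 UMIs). Microglia had 52.7 and 57.5 CPM and the monocyte range 49.6 and 52.4 CPM, whose intervals overlapped with each other. All 3 differed little between libraries, with log2 ratios of -0.03 (95% interval -0.11 to 0.05), 0.13 (95% interval -0.06 to 0.31) and 0.08 (95% interval -0.05 to 0.21). T cells had 22.2 and 23.2 CPM, and among them CD4 cells 37.2 and 34.9 CPM and regulatory cells 34.9 and 28.8 CPM, while NK cells had 1.80 and 2.77 CPM from 2 and 4 UMIs. Dividing cells of the wildtype monocyte range had 2.17 times (1.86 to 2.52) the level of non-dividing ones, against 1.41 times (1.2 to 1.64) in the Glut5 KO library. In the macrophage range the same comparison gave 1.0 times (0.937 to 1.07) and 0.947 times (0.858 to 1.04).

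P2rx4, the channel encoded 16112 bases downstream of P2rx7 on the same strand (ENSMUSG00000029470, chr5:122707544-122729738, plus strand), was likewise a phagocyte gene. It stood at 234 and 223 CPM in the macrophage range, 211 and 203 CPM in the monocyte range and 147 and 148 CPM in microglia, so microglia had the least of the 3 in both libraries. Migratory dendritic cells had 101 and 99.0 CPM, T cells 37.4 and 26.1 CPM and NK cells 13.5 and 7.62 CPM. Microglia, both monocyte/macrophage ranges, cDC1, cDC2 and migratory dendritic cells all differed by less than 1.5-fold between libraries. Plasmacytoid dendritic cells had 103 and 67.4 CPM (32 and 54 UMIs), over 1.5-fold lower in the Glut5 KO library with a log2 ratio of -0.63 (95% interval -1.27 to 0.06). The microglial log2 ratio was 0.01 (95% interval -0.10 to 0.12). In CD8 T cells P2rx4 had 31.8 and 9.91 CPM (26 and 14 UMIs) and P2ry6 20.8 and 4.95 CPM (17 and 7 UMIs), and these 2 of 6 members were at least 1.5-fold lower in the Glut5 KO library, against 8.84% of all genes. Microglial markers were lower there too in the Glut5 KO library. Their summed level was 995 and 545 CPM, with 9 of 10 markers seen in each library, Sall1 at 0 in the wildtype and Fcrls at 0 in the Glut5 KO library. Monocyte/macrophage markers went the other way in these CD8 T cells, with summed levels of 2782 and 2968 CPM. That sum does not tell phagocyte RNA from transcripts of the T cells themselves. The part of either marker set in the P2rx4 and P2ry6 differences was not tested.

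Entpd1 encodes CD39, the enzyme that clears ATP and ADP (ENSMUSG00000048120, chr19:40612366-40741602, plus strand). It was at 247 CPM in the wildtype library (95% interval 237 to 256, 2465 UMIs) and 284 CPM in the Glut5 KO library (273 to 296, 2302 UMIs) in microglia. The macrophage range had 151 CPM in the wildtype library (95% interval 148 to 155, 7136 UMIs) and 188 CPM in the Glut5 KO library (182 to 193, 5005 UMIs). Both were higher in the Glut5 KO library with intervals apart, by log2 ratios of 0.21 (95% interval 0.12 to 0.29) and 0.31 (95% interval 0.26 to 0.36), and neither reached 1.5-fold. The monocyte range had 134 and 135 CPM, with a log2 ratio of 0.00 (95% interval -0.08 to 0.08). Across 5 bins of the monocyte/macrophage class, from the most macrophage-like to the most monocyte-like, Entpd1 was at 161, 132, 125, 124 and 140.3 CPM in the wildtype library and 211, 159.9, 136, 135 and 137 CPM in the Glut5 KO library. The gap between libraries was widest in the most macrophage-like bin and closed in the most monocyte-like one.

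The higher Entpd1 in the macrophage range held in both sex-marker strata, with log2 ratios of 0.35 (95% interval 0.27 to 0.43) for Y-linked cells and 0.43 (95% interval 0.34 to 0.52) for Xist cells. It held in non-dividing macrophage-range cells too, with 0.24 (95% interval 0.17 to 0.30). Neutrophils had 261 and 431 CPM, but from 16 and 60 cells and with wide intervals. Stromal cells had 4.65 and 8.35 CPM.

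In T cells Entpd1 was at 76.3 and 96.1 CPM, a log2 ratio of 0.33 (95% interval 0.06 to 0.62). Regulatory T cells, which use CD39 to make adenosine, had 101 and 119 CPM, CD8 T cells 95.5 and 107 CPM and CD4 T cells 68.7 and 84.1 CPM, with intervals that overlapped between subsets. The fold of regulatory over CD4 T cells was 1.47 (0.842 to 2.62) in the wildtype and 1.42 (1.04 to 1.96) in the Glut5 KO library. Gamma-delta T cells had 1 and 4 UMIs in all, or 9.29 and 22.3 CPM.

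Nt5e, the gene of CD73 and the last step to adenosine (ENSMUSG00000032420, chr9:88327197-88372092, plus strand), showed the widest difference between libraries in T cells among the 8 members with at least 20 UMIs there. It was at 44.0 CPM in the wildtype library (95% interval 35.2 to 54.2, 87 UMIs) and 91.5 CPM in the Glut5 KO library (82.1 to 102, 351 UMIs) in T cells. The intervals were apart, the log2 ratio was 1.05 (95% interval 0.71 to 1.41) and the fold was 2.07. All 5 T cell groups pointed the same way, though not all with intervals apart. Regulatory T cells had 60.2 and 126 CPM (19 and 118 UMIs) and CD4 T cells 17.2 and 86.7 CPM (6 and 67 UMIs). CD8 T cells had 42.8 and 64.4 CPM, gamma-delta T cells 65.0 and 89.2 CPM and the remaining T cells 51.3 and 111 CPM. Regulatory cells made up 11.8% of 263 wildtype T cells (95% Clopper-Pearson interval 8.15 to 16.3) and 18.6% of 521 in the Glut5 KO library (15.4 to 22.2).

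**Figure D2:**
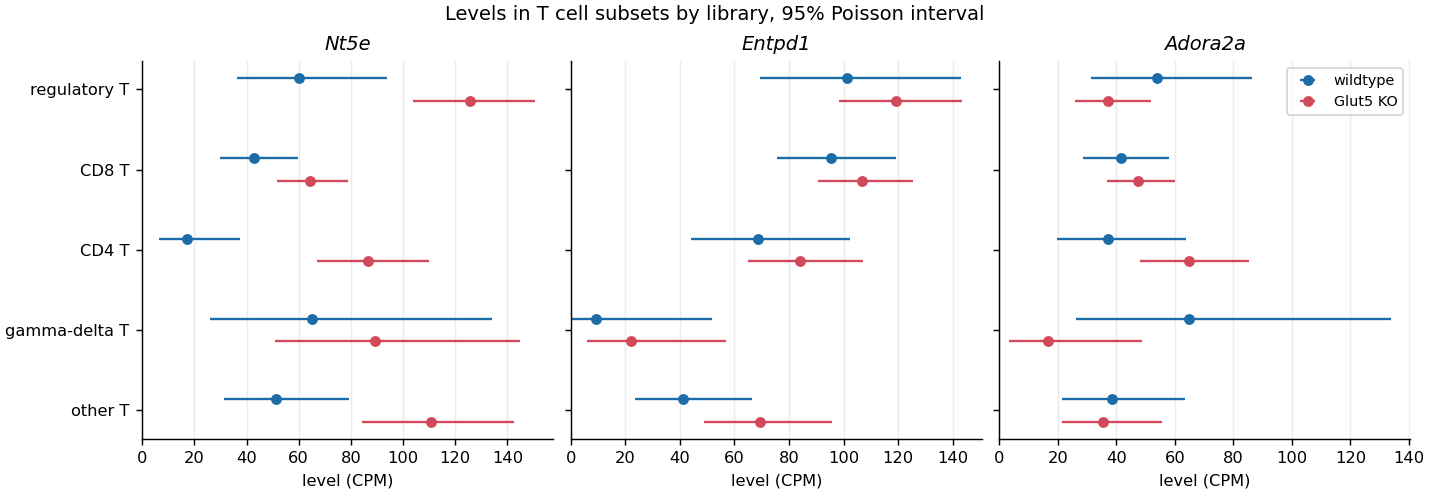
Levels of Nt5e, Entpd1 and Adora2a in CPM (x axis) in 5 T cell groups (y axis) of the wildtype and Glut5 KO libraries, with points for the libraries and bars for the exact 95% Poisson interval. Nt5e is higher in the Glut5 KO library in each group, from 17.2 to 86.7 CPM in CD4 cells, while Entpd1 and Adora2a have overlapping intervals throughout.

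The Nt5e difference was of like size in T cells with Y-linked UMIs alone, at a log2 ratio of 0.96 (95% interval 0.49 to 1.49), and with Xist alone, at 1.31 (95% interval 0.35 to 2.65) from 8 wildtype UMIs. Non-dividing T cells gave 1.07 (95% interval 0.65 to 1.53). Non-dividing cells held more Nt5e in both libraries, since dividing T cells had 0.598 times (0.372 to 0.936) and 0.568 times (0.452 to 0.709) their level. At 1000 UMIs per cell, Nt5e was seen in 6.11% and 8.73% of T cells and in 0 of 1071 and 2 of 970 microglia. Unthinned, the shares were 26.2% and 36.9% of T cells and 0.632% and 0.845% of microglia. T cells with both Entpd1 and Nt5e made up 1.66% (4 of 241) and 2.63% (12 of 457) at 2000 UMIs per cell, a difference not detectable at this depth.

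NK cells came next among classes of at least 50 cells in both libraries. NK cells had 27.8 and 40.9 CPM (31 and 59 UMIs), with a log2 ratio of 0.54 (95% interval -0.10 to 1.23). Microglia had 0.800 and 1.23 CPM and the macrophage range 6.64 and 6.48 CPM, so 2 classes high in Entpd1 were low in Nt5e. The stromal class went the other way from T cells, from 32 to 2 UMIs (13.5 and 1.86 CPM).

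Adora3, the inhibitory A3 adenosine receptor (ENSMUSG00000000562, chr3:105870858-105908926, plus strand), was highest in microglia among classes of at least 50 cells. Microglia had 84.5 and 83.5 CPM, with overlapping intervals and a log2 ratio of -0.02 (95% interval -0.17 to 0.13), against 8.35 and 7.34 CPM in the macrophage range, a fold of 10.1 (8.97 to 11.4) and 11.4 (9.68 to 13.4). Dividing microglia had 0.699 times (0.592 to 0.821) and 0.559 times (0.408 to 0.738) the level of non-dividing ones. Mast cells or basophils, in which the A3 receptor promotes degranulation in rodents, had 109 and 202 CPM, from 9 and 29 UMIs in 13 and 34 cells. Tmigd3 overlaps Adora3 on the same strand and gave 103 UMIs over both libraries, against 2863 for Adora3.

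Adora2a, an adenosine receptor that raises cyclic AMP and dampens lymphocytes (ENSMUSG00000020178, chr10:75316877-75334784, plus strand), peaked in migratory dendritic cells at 167 CPM in the wildtype library (95% interval 148 to 187, 283 UMIs) and 181 CPM in the Glut5 KO library (159 to 204, 261 UMIs). NK cells followed with 110.4 CPM in the wildtype library (95% interval 91.8 to 132, 123 UMIs) and 61.6 CPM in the Glut5 KO library (49.5 to 75.9, 89 UMIs), where the intervals were apart and the log2 ratio was -0.84 (95% interval -1.25 to -0.44). T cells had 43.4 and 45.3 CPM, a log2 ratio of 0.06 (95% interval -0.32 to 0.45). In wildtype cells the order migratory dendritic, NK and T cells had intervals apart. In the Glut5 KO library the intervals of NK and T cells overlapped. The NK to T cell fold was 1.36 (1.04 to 1.77) there, against 2.54 (1.91 to 3.39) in the wildtype library. T cells with Y-linked UMIs alone gave a log2 ratio of 0.60 and those with Xist alone -1.05, the latter with an interval that included 0. The lower NK value kept its direction in cells with Y-linked UMIs alone, at -0.70 (95% interval -1.63 to 0.12), with Xist alone, at -1.37 (95% interval -2.21 to -0.49), and without dividing cells, at -0.79 (95% interval -1.23 to -0.37). With mixed barcodes kept, the log2 ratio in NK cells was -0.27. At 1000 UMIs per cell Adora2a was seen in 12.7% and 5.99% of NK cells and 0.0934% and 0.309% of microglia (unthinned 36.3% and 23.7% and 0.181% and 0.845%), at median depths of 3060 and 3448 UMIs in NK cells.

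Among monocyte/macrophages Adora2a and Adora2b, its low-affinity relative (ENSMUSG00000018500, chr11:62248984-62266453, plus strand), marked the monocyte end. Adora2a was at 22.7 and 25.5 CPM in the monocyte range and 1.21 and 1.84 CPM in the macrophage range, a fold of 18.8 (14.2 to 25.2) in the wildtype and 13.9 (10.4 to 19.0) in the Glut5 KO library. Adora2b was at 32.3 and 27.8 CPM and 7.02 and 5.40 CPM, a fold of 4.60 (4.02 to 5.28) and 5.14 (4.28 to 6.22). Over the 5 bins from macrophage to monocyte, Adora2a went through 0.540, 1.63, 6.73, 14.3 and 29.1 CPM in the wildtype and 1.05, 2.26, 6.42, 12 and 33.4 CPM in the Glut5 KO library. Adora2b went through 5.46, 9.18, 16.8, 26.8 and 36.5 CPM and 5.0, 5.27, 9.64, 18.7 and 33.9 CPM, lower in the Glut5 KO library in each bin. The Adora2b intervals of the libraries were apart only in the bins from 20% to 60% of monocyte marker share. P2ry6 ran against both A2 receptors, with 227, 209, 198, 172 and 146 CPM and 204, 205, 169.9, 154 and 127 CPM. The cDC2 class had as much Adora2b, with 37.1 and 34.9 CPM, and microglia had 0.900 and 1.23 CPM.

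**Figure D3:**
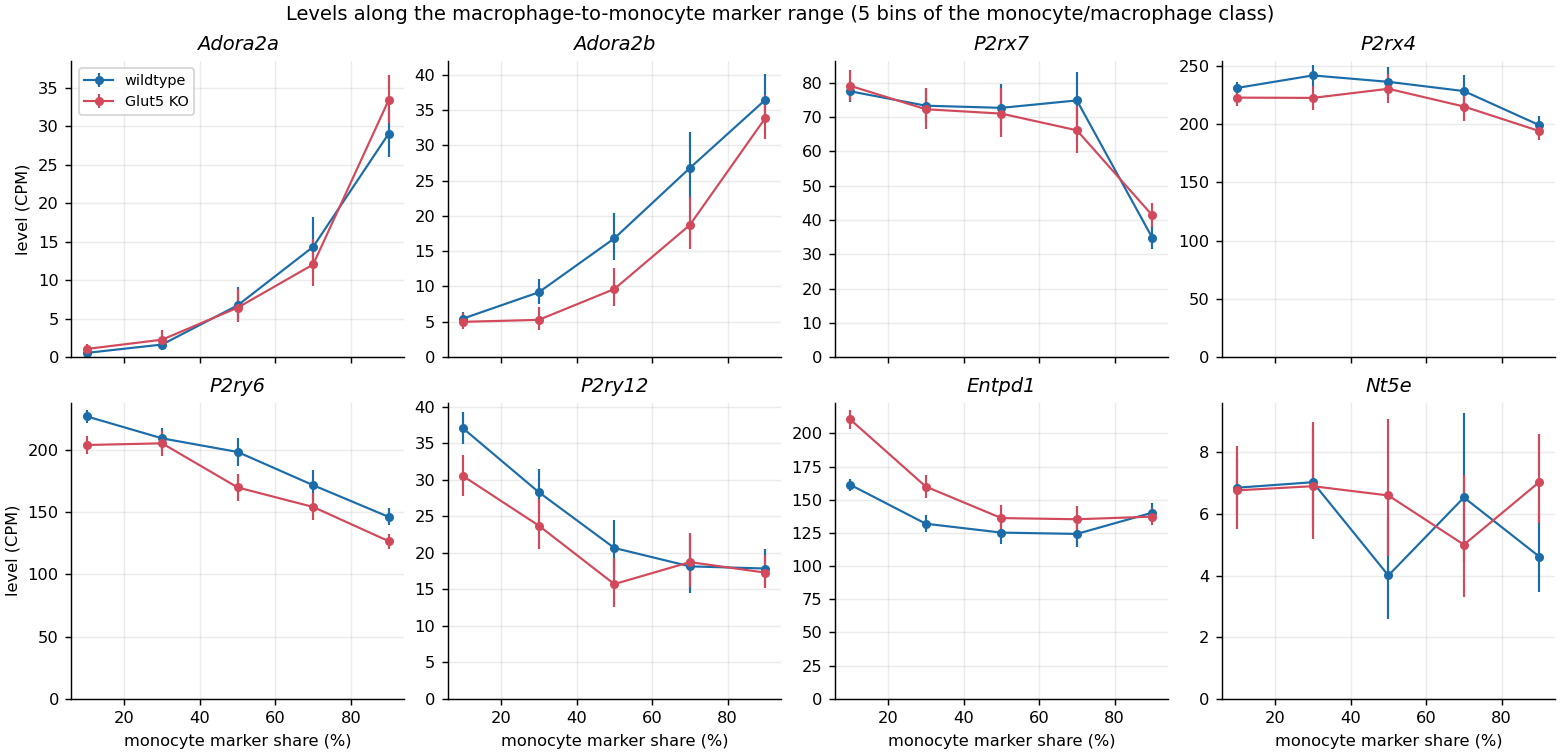
Levels of 8 of the genes in CPM (y axis, linear from 0) over 5 bins of the share of monocyte markers among a cell's monocyte and macrophage marker UMIs (x axis, in percent), with lines for the wildtype and Glut5 KO libraries and bars for the exact 95% Poisson interval. Adora2a and Adora2b climb towards the monocyte end, to 29.1 and 36.5 CPM in the wildtype library, and P2ry6 declines. P2rx7 drops mainly in the most monocyte-like bin, to 34.7 CPM in the wildtype and 41.3 CPM in the Glut5 KO library.

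The pooled monocyte/macrophage class had 7.29 and 12.3 CPM of Adora2a, a log2 ratio of 0.75 (95% interval 0.58 to 0.93). It was under 1.5-fold in non-dividing cells, at 0.56, and by the mean of per-cell CPM, at 0.58. In cells with Xist alone its direction was the opposite one, at -0.26, and at -0.22 in the macrophage range. The monocyte range alone had a log2 ratio of 0.17 (95% interval -0.02 to 0.36), and the Glut5 KO class held more monocyte-range cells (3264 of 5990, against 2615 of 6496). Both A2 receptors pointed in opposite directions in the sex-marker strata of the monocyte range. For Adora2a, cells with Y-linked UMIs alone had 16.1 and 33.5 CPM (103 and 167 UMIs), a log2 ratio of 1.06 (95% interval 0.70 to 1.43). Cells with Xist alone had 26.8 and 12.5 CPM (105 and 91 UMIs), a log2 ratio of -1.09 (95% interval -1.52 to -0.68).

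For Adora2b, Y-linked cells had 30.4 and 45.5 CPM (195 and 227 UMIs), a log2 ratio of 0.58 (95% interval 0.30 to 0.87), and Xist cells 34.9 and 10.5 CPM (137 and 76 UMIs), a log2 ratio of -1.73 (95% interval -2.16 to -1.32). The Glut5 KO library was thus the highest of the 4 values in one stratum and the lowest in the other, for both receptors. Of the genes with at least 20 UMIs in each stratum, 1.01% were at least 1.5-fold higher in Y-linked cells and at least 1.5-fold lower in Xist cells, and Adora2a was the 1 member among them. The strata also differed in division. In the Glut5 KO library 18.6% of Xist cells and 4.36% of Y-linked cells were dividing, against 9.15% and 9.36% in the wildtype library. In non-dividing cells the opposite signs stayed, with Adora2a at 0.94 (95% interval 0.57 to 1.32) and -0.80 (95% interval -1.24 to -0.36), and Adora2b at 0.50 (95% interval 0.20 to 0.80) and -1.67 (95% interval -2.13 to -1.24). The animals behind each stratum cannot be counted, so sex, animal and genotype cannot be told apart here.

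**Figure D4:**
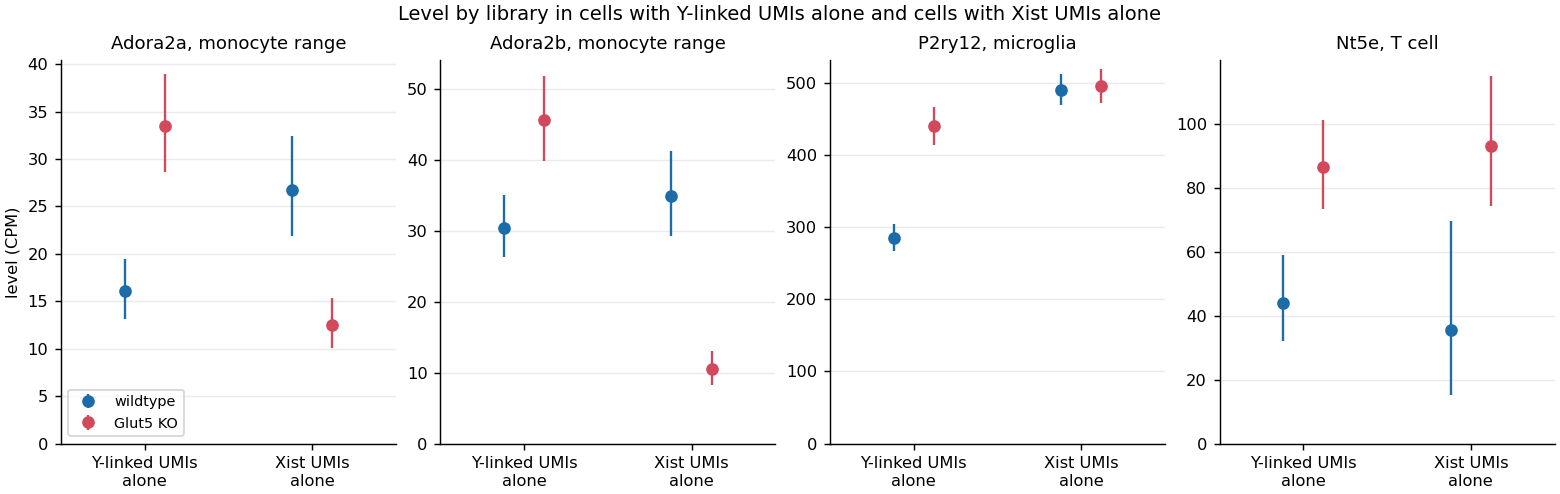
Level in CPM (y axis, linear from 0) of Adora2a and Adora2b in the monocyte range, P2ry12 in microglia and Nt5e in T cells, for the Y-linked and the Xist stratum (x axis), with points for the wildtype and Glut5 KO libraries and bars for the exact 95% Poisson interval. The order of the libraries is opposite in the 2 strata for Adora2a and Adora2b, the P2ry12 intervals are apart in the Y-linked stratum and overlap in the Xist stratum, and Nt5e is higher in the Glut5 KO library in both.

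Between libraries, few members passed 1.5-fold in microglia, monocyte/macrophages and T cells as a whole. Apart from NK cells, smaller classes and T cell subsets are left out of the counts that follow. Some of those left out had more members past 1.5-fold, from fewer UMIs. In microglia 0 of the 7 members with at least 20 UMIs were 1.5-fold higher and 0 lower, against 4.18% and 8.12% of all genes with that many UMIs, and their median log2 ratio was 0.01 beside -0.05 for all genes. In monocyte/macrophages Adora2a alone of 10 was higher and 0 were lower (background 7.92% and 7.41%). By range, 0 of 10 passed in the monocyte range in either direction (background 6.14% and 4.37%), and Adora2a alone was higher in the macrophage range, from 57 and 49 UMIs (background 6.88% higher and 6.36% lower, with 0 members lower). In T cells Nt5e was the 1 of 8 that was higher and 0 were lower (background 8.91% and 6.39%). With so few members called, these shares are near the background. In NK cells 4 of 6 were lower and 0 higher (background 6.73% and 8.39%). They were Adora2a, with 212 UMIs, and P2ry12, P2ry6 and P2rx4, phagocyte genes that together had 68 UMIs in these NK cells and ratio intervals that included 0.

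Of 16 monocyte/macrophage markers, 11 and 12 were seen in NK cells, at summed levels of 1151 and 1052 CPM. The sum does not tell phagocyte RNA from transcripts of the NK cells themselves. Chil3, F13a1, Mrc1 and Arg1 were at 0 in both libraries. Microglial markers were not lower in the Glut5 KO NK cells, with 10 of 10 seen in each library at summed levels of 761 and 779 CPM. The part of either marker set in the values of P2ry12, P2ry6 and P2rx4 there was not tested.

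**Figure D5:**
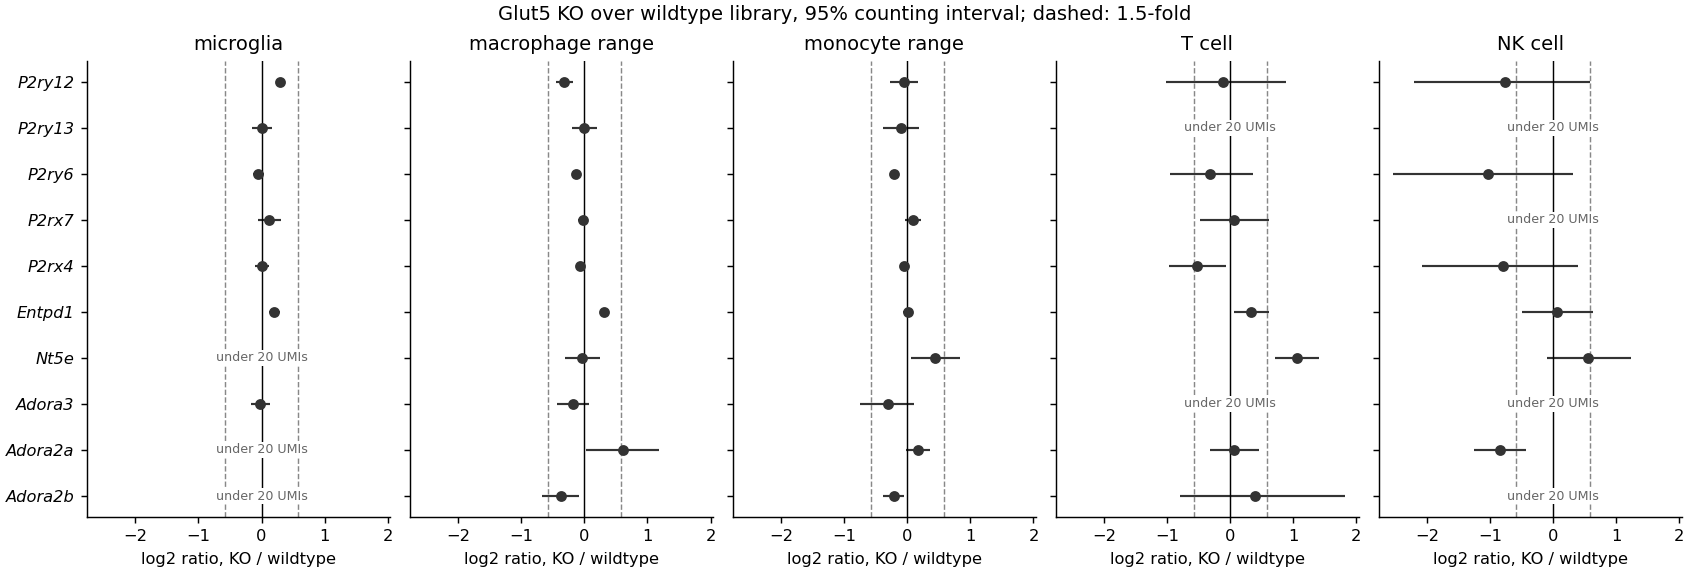
Glut5 KO to wildtype ratio on the log2 scale (x axis) for the 10 genes (y axis) in 5 classes, with bars for the conditional exact 95% interval and dashed lines at 1.5-fold, and with genes under 20 UMIs marked as such. Among the genes with at least 20 UMIs, which are those drawn, Nt5e in T cells, Adora2a in NK cells and, barely, Adora2a in the macrophage range lie beyond 1.5-fold with intervals apart from 0, at 1.05 and -0.84 for the first pair, and the microglial values drawn lie between -0.05 and 0.30.

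The rest of the purine pathway was read from 8 further lists with 59 genes, using the same 1.5-fold rule and at least 20 UMIs. The shares of all genes to set beside these counts are 4.18% higher and 8.12% lower in microglia, and 7.92% and 7.41% in monocyte/macrophages. Among other P2Y receptors, 1 of 4 measured in microglia was higher (P2ry10) and 0 were lower. That microglial value rests on 8 and 28 UMIs, or 0.800 and 3.46 CPM. In monocyte/macrophages 2 of 5 were higher (P2ry1 and P2ry10) and 0 lower. The P2ry1 value rests on 19 and 22 UMIs, with a log2 ratio of 0.67 (95% interval -0.28 to 1.64) that was -0.28 in the monocyte range and 1.74 in the macrophage range. P2ry10, a lysophosphatidylserine receptor of leukocytes, had 2.60 and 4.83 CPM in monocyte/macrophages, a log2 ratio of 0.89 (95% interval 0.60 to 1.19). Its level was 76.3 and 93.5 CPM in T cells and 162 and 157 CPM in NK cells. T cell markers summed to 2.80 and 12.8 CPM in microglia and 3.02 and 12.3 CPM in monocyte/macrophages. The part of lymphocyte RNA in the P2ry10 values was not tested. P2ry14, the UDP-glucose receptor, lies in the P2ry12 cluster but had another pattern. It was at 242 and 241 CPM in plasmacytoid dendritic cells, 179 and 135 CPM in NK cells, 43.3 and 64.6 CPM in the monocyte range and 15.6 and 12.6 CPM in microglia, and its r with P2ry12 over the 25 points was 0.05. In the monocyte range its log2 ratio was 0.57 (95% interval 0.45 to 0.70).

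Of the 5 other P2X receptors 1 was measured in microglia, P2rx1, at 6.10 and 3.95 CPM, with a log2 ratio of -0.62 (95% interval -1.29 to 0.01). The A1 adenosine receptor gene Adora1 was low but differed in microglia, at 8.40 and 3.46 CPM, a log2 ratio of -1.26 (95% interval -1.95 to -0.65) from 112 UMIs. Of 13 other nucleotide-splitting enzymes, 6 were measured in microglia, with Cd38 higher and Entpd5 lower. There Cd38 rests on 13 and 23 UMIs, with a log2 ratio of 1.10 (95% interval 0.09 to 2.23). Entpd5 rests on 53 and 23 UMIs, with -0.88 (95% interval -1.67 to -0.17). In monocyte/macrophages 7 were measured, with Acpp and Bst1 higher and Enpp1 lower. Acpp rests on 15 and 17 UMIs, with a log2 ratio of 0.64 (95% interval -0.45 to 1.75) and of -0.48 in the monocyte range. Enpp1, which splits ATP to AMP and also cleaves cGAMP, had 13.5 and 8.51 CPM in the macrophage range, a log2 ratio of -0.67 (95% interval -0.89 to -0.45), and 3.91 and 1.66 CPM in the monocyte range, with -1.23 (95% interval -1.86 to -0.64). In microglia it had 13.2 and 14.1 CPM, with 0.09 (95% interval -0.28 to 0.46). Cd38, which consumes NAD, had 26.2 and 40.8 CPM in the monocyte range, a log2 ratio of 0.64 (95% interval 0.48 to 0.80).

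Of the ATP release genes 0 of 5 passed in microglia, and Calhm6 alone of 5 was higher in monocyte/macrophages. Calhm6, a channel subunit of the calcium homeostasis modulator family, had 65.6 and 141 CPM in the macrophage range, a log2 ratio of 1.10 (95% interval 1.03 to 1.17). Panx1, the pannexin channel for ATP, had 11.2 and 14.6 CPM in monocyte/macrophages, with 0.39 (95% interval 0.24 to 0.54). Among the 10 genes of adenosine uptake and turnover, Dpp4 (CD26, which binds adenosine deaminase in humans) was higher in monocyte/macrophages, at 5.04 and 11.3 CPM and 1.16 (95% interval 0.96 to 1.36), and 0 were lower. In microglia 9 were measured, with Dpp4 higher and Ada and Pnp2 lower. Pnp, which splits inosine, had 323 and 269.6 CPM in microglia, with a log2 ratio of -0.26 (95% interval -0.34 to -0.18), and 420.5 and 512 CPM in monocyte/macrophages, with 0.28 (95% interval 0.26 to 0.31), so its direction was opposite in these classes.

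None of the 8 genes from P2X7 to the inflammasome passed 1.5-fold in microglia or in monocyte/macrophages. Nlrp3 had 154 and 184 CPM in microglia, with 0.26 (95% interval 0.16 to 0.36), and Pycard, its adaptor, 618 and 485 CPM, with -0.35 (95% interval -0.41 to -0.29). Il1b had 2000 and 2009 CPM in the macrophage range, with 0.01 (95% interval -0.01 to 0.02). None of the 10 coupling genes passed in these 2 classes either. Gnai2, the G protein of P2Y12, had 1040 and 954 CPM in microglia, and Gnas, that of the A2 receptors, 373 and 337 CPM in the monocyte range. In microglia the median log2 ratio was -0.05 for the inflammasome list and 0.11 for the coupling list, beside -0.05 for all genes.

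Genes most like each member were ranked by Pearson r of log2(CPM + 10) over the 25 points among genes with at least 500 UMIs. Gal3st4 (r = 0.96), Plxdc2 (r = 0.94) and Npl (r = 0.93) were closest to P2ry12, Cxcl13 (r = 0.90), Npl (r = 0.89) and Ctsb (r = 0.89) to P2ry13 and Lrrc3 (r = 0.96), Gal3st4 (r = 0.95) and Liph (r = 0.93) to Adora3, so Gal3st4 and Npl each came up for more than 1 of these microglial members. Cryl1 (r = 0.94), Stard8 (r = 0.94) and Ntpcr (r = 0.93) were closest to P2ry6. For the channels they were Sgk1 (r = 0.86), Commd9 (r = 0.85) and Hmox1 (r = 0.85) for P2rx7, and Lacc1 (r = 0.95), Rassf4 (r = 0.93) and Ctsh (r = 0.92) for P2rx4. Entpd1 was closest to Vsir (r = 0.92), Cln3 (r = 0.83) and Pnpla7 (r = 0.82), where Vsir encodes the checkpoint protein VISTA. Nt5e was closest to Dtnb (r = 0.91), Rnf125 (r = 0.91) and Gimap3 (r = 0.90). Adora2a was closest to Stat4 (r = 0.90), Traf2 (r = 0.88) and Gtpbp1 (r = 0.86), where Stat4 encodes a transcription factor of cytokine signalling, and Adora2b to Krt80 (r = 0.89), Ocstamp (r = 0.83) and Ccr1 (r = 0.80). With 1 in place of 10 CPM added, 3 of the 10 members kept at least 2 of their 3 closest genes, so the ranks depend on low levels. The neighbouring pair P2rx7 and P2rx4 correlated at 0.53, and P2ry6 with its neighbour P2ry2 at 0.72.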

How the data were processed

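Both 10x 5′ v2 libraries, 1 per genotype, were prepared, per the labels' protocols. The authors deposited UMI counts per gene and barcode, made with Cell Ranger against mm10, version 3.1.0 per the submitters' processing notes and 7.0.1 per the file headers. These counts were used as deposited. Barcodes with at least 300 genes and under 10% mitochondrial UMIs were kept, and classes were gated on marker UMIs per 10000. A lineage class needed at least 3 markers, and microglia needed at least 5 UMIs of microglial markers per 10000, with a further gate setting not reported here. No member was in the gate. Gate thresholds were set on marker distributions. The members, gene lists and markers were chosen with earlier results of these data known.

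Levels are CPM with exact Poisson intervals, ratios carry conditional exact binomial intervals and shares carry Clopper-Pearson intervals, all at 95%. A limit for 0 of n cells uses 3 counts. With 1 library per group no p-value was computed, and a difference counts as passing at 1.5-fold with at least 20 UMIs over both libraries. The text names all members and the 3 genes most like each. The naming rule also took pathway genes with at least 100 UMIs, those past 1.5-fold first, and neighbours with at least 100 UMIs, and not all of these are printed. Those printed, and pathway genes under that minimum, were chosen after their values were seen. Alternatives covered scaling, count minimum, gate, mixed barcodes, high-UMI barcodes, per-cell means, thinning, division, sex markers and mitochondrial share. Depth was 116105873 UMIs in the wildtype and 96851696 in the Glut5 KO library. The computations were tested on simulated data. Python 3.11.15, numpy 2.4.6, scipy 1.17.1, pandas 2.3.3 and matplotlib 3.10.9 were used. Gene positions are those of the GENCODE annotation of GRCm38, the assembly behind mm10, and promoter sequences are from RefSeq.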

Additional observations from a re-analysis of the deposited data

Results flagged for a closer look

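Nt5e had a Glut5 KO to wildtype log2 ratio of 1.05 in T cells and -2.57 in the stromal class, opposite directions in cells of the same libraries. The stromal value rests on 32 and 2 UMIs, in a class that may hold implanted tumour cells as well as host cells. The difference was not tested.

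Adora2a had a log2 ratio of 0.75 in monocyte/macrophages and -0.84 in NK cells. In the monocyte range it was 1.06 in cells with Y-linked UMIs alone and -1.09 in cells with Xist alone. Adora2b had 0.77 and -0.87 in these strata of the monocyte/macrophage class, and 0.58 and -1.73 in those of the monocyte range. Each of these differences between classes or strata was picked out because the directions were opposite, and none was tested, since each genotype has 1 library.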

How the results depend on the processing

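No paired analysis was possible because each genotype has 1 library. Counts of members at least 1.5-fold apart moved as follows. In microglia, 0 higher became 2 with no count minimum, 1 by the mean of per-cell CPM and 1 in Y-linked cells alone, and 0 lower became 1 by the per-cell mean. In monocyte/macrophages, 1 higher became 0 by the per-cell mean, in non-dividing cells and in Xist cells alone, and 2 in Y-linked cells alone, and 0 lower became 1 in either stratum. In T cells, 1 higher became 2 without the top 8% of barcodes by UMIs, by the per-cell mean, in non-dividing cells and in Xist cells alone, and 3 in Y-linked cells alone. There 0 lower became 2 with no count minimum, and 1 with mixed barcodes kept, in non-dividing cells and in either stratum. Median-ratio scaling, a minimum of 100 UMIs, the stricter gate and thinning to 1000 UMIs left all 6 counts in place.

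Among those past 1.5-fold, log2 ratios reversed for P2ry12 in NK cells, to 0.24 by the per-cell mean, 0.31 thinned and 0.052 in Y-linked cells. They also reversed in NK cells for P2ry6, to 2.14 thinned, and for P2rx4, to 0.97 by the per-cell mean and 0.56 in Xist cells. Entpd1 in migratory dendritic cells went to -3.80 in Y-linked cells. Adora2a went to -0.26 in monocyte/macrophages and -0.22 in the macrophage range, both in Xist cells. Log2 ratios under 1.5-fold changed sign too, and not all are listed. In the monocyte range Adora2b went from -0.22 to 0.58 in Y-linked cells, and Adora2a from 0.17 to -1.09 in Xist cells. The cause was not tested. Of 61 log2 ratios, 61 stayed within their interval at a mitochondrial share under 5% and 29 when thinned. Shares of cells change with depth by construction, and 90 of 90 differed unthinned and 72 at 2000 UMIs.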
